A study of Mus musculus with 7 samples.

Results

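The 5 control libraries of E11.5 mouse ventricles were described together as a single condition, and they are 5 of the 7 libraries of a series on loss of Hand1 in the heart. They were chosen by their genotype labels alone. In 3 Cre controls a heterozygous Nkx Cre allele, the driver of the knockout, was combined with wild-type Hand1 (Nkx Cre +/-; wt). In 2 flox controls Hand1 was floxed on both alleles and no Cre was present (Nkx Cre wt; H1flox/flox). The 2 knockout libraries, from embryos with both alleles (Nkx Cre +/-; H1flox/flox), were not used. All embryos had a mixed background, the dissected ventricles went into RNA-later, and polyadenylated RNA was sequenced. No wild type without either allele was among them, so the baseline is that of Cre carriers and flox homozygotes. The labels give each library its own identifier and do not say how many embryos it holds, so the spread between libraries may be technical or that of embryos. The identifiers of Cre control replicates 1 and 3 begin alike, and these libraries were each other's closest (r = 0.994 across genes). The labels do not say whether they share a dam or litter, so they may not be independent. Errors below are SD over the 5 libraries.

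At midgestation the ventricle is a muscular chamber with an outer compact layer and inner trabeculae, lined by endocardium, covered by the newly formed epicardium and filled with blood that carries primitive red cells. Its muscle cells contract while they divide. They use sarcomeres assembled from families of related proteins, many of which exist in an atrial or ventricular, cardiac or skeletal, embryonic or adult form. Which member of a family is used is a common measure of the identity and maturity of heart muscle.

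Levels are given as TPM, a transcript level per base of exon scaled to the same total in every library. They were computed here from the deposited counts and the summed exon length of each gene, so that levels of different genes can be compared per length within a library. Total counts lay between 24343222 and 28152695 over 13701 genes, and a single count on a gene of median length was worth 0.0294 to 0.0324 TPM. Flox control replicate 1 stood apart. Across genes its highest correlation with any other library was 0.976 (log2 TPM, 13071 genes), against 0.984 or more for each of the other libraries. Its shortest genes, with a median length of 874.5 bases, lay 0.21 above the mean of the 5 libraries on the log2 scale, while in the other libraries they lay at -0.04 to -0.08. The nuclear RNA Malat1 was at 665 TPM there, against 245 to 308 TPM in the others. Embryo sex also differed. Xist, the RNA of the inactive X chromosome, was at 96.9 TPM in Cre control replicate 2 and 116 TPM in flox control replicate 2, and the Y-linked gene Eif2s3y was at 99.6 to 141 TPM in the other 3 libraries and at most 0.05 TPM in these.

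**Figure D1:**
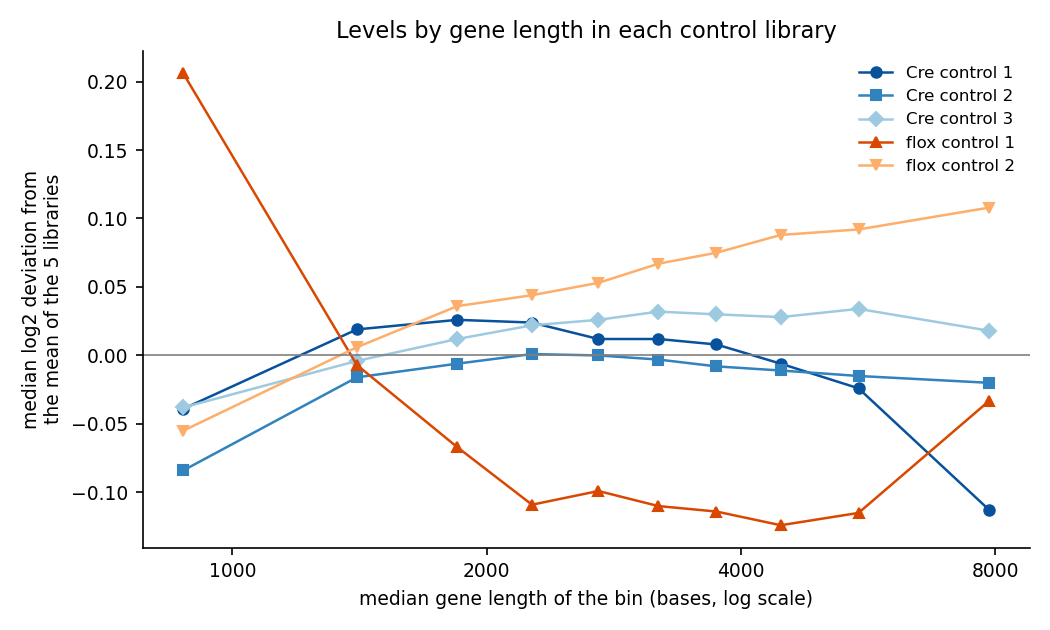
Median log2 deviation of genes from the mean of the 5 control libraries (y axis) in 10 bins of gene length (x axis, bases, log scale), a line per library. Flox control replicate 1 is at 0.21 in the shortest bin and between -0.01 and -0.12 in all longer bins.

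Among the 13701 genes counted, none of them from the mitochondrial genome, a small number accounted for much of the TPM. The 10 most abundant genes held 10.2 ± 0.9% of all TPM, the 100 most abundant 27.6 ± 0.9% and the 1000 most abundant 58.9 ± 1.1%. Of the 13701 genes, 12602 reached 1 TPM in every library, 9150 reached 10 TPM, 1454 reached 100 TPM and 96 reached 1000 TPM. The median gene was at 23.9 TPM. The same genes led in every library, since 9 genes were among the 10 highest in all 5 libraries and 77 among the 100 highest. The 100 highest had a median length of 845.5 bases, against 2993 bases over all genes. TPM divides counts by this same length, so a ranking by TPM favours short genes.

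Myl2, the regulatory light chain of the ventricular myosin, had the highest mean TPM of the genes counted. It was at 16772, 18144 and 15098 TPM in the Cre controls and at 17591 and 16037 TPM in the flox controls, a narrow range in which the groups overlapped. Actc1, cardiac alpha-actin, followed with 16014, 18314 and 12829 TPM in the Cre controls and 9838 and 14297 TPM in the flox controls. Myl2 lay above Actc1 in 4 of the 5 libraries, so the order of the leading pair was not the same throughout. Below them came Mir6236 at 12537 ± 2625 TPM, a feature of 123 bases whose level per length rests on that short length, and Hbb-y, embryonic beta-like globin, at 12368 ± 4493 TPM. Their order changed between libraries, with Mir6236 above in 3 of 5. The imprinted long noncoding RNA H19 averaged 9891 ± 1172 TPM and the ribosomal RNA precursor Rn45s 9840 ± 1936 TPM, with H19 above in 2 of 5. Rn45s stands for a multicopy locus, and ribosomal RNA is not polyadenylated. The atrial light chain Myl7 (6868 ± 1041 TPM), the translation elongation factor Eef1a1 (6663 ± 319), the embryonic and atrial essential light chain Myl4 (6489 ± 444) and the cardiac troponin T gene Tnnt2 (5541 ± 535) completed the 10 highest. Of neighbours among these 10, only Rn45s over Myl7 and Myl4 over Tnnt2 kept their order in all 5 libraries.

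**Figure D2:**
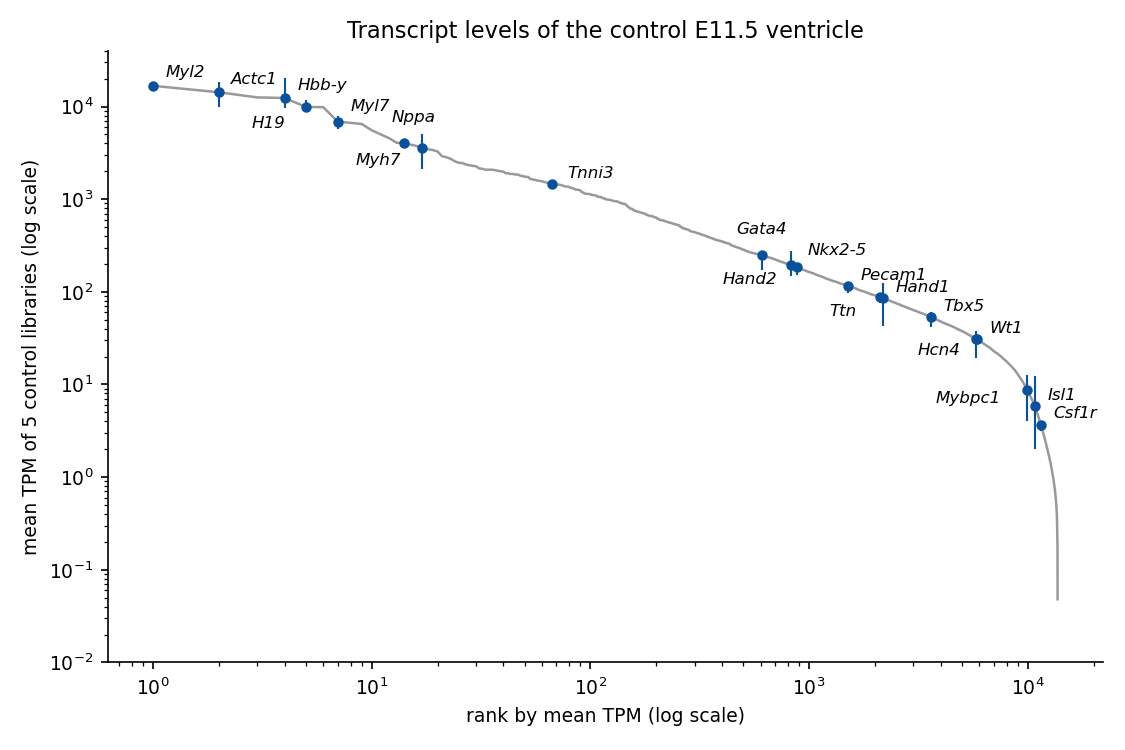
Mean TPM over the 5 control libraries (y axis, log scale) against rank among 13701 genes (x axis, log scale). Labelled points are single genes with a bar from the lowest to the highest library, from Myl2 at 16729 TPM down to Csf1r at 3.69 TPM.

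The next 20 genes by rank held further sarcomere genes (Myl3, Myh7, Tnnc1 and Tnni1), the globins Hba-x and Hbb-bh1, the imprinted genes Igf2 and Mest, and Nppa, which encodes atrial natriuretic peptide. They also held the mitochondrial ATP synthase subunit Atp5b at 3462 ± 547 TPM, the mitochondrial ADP/ATP carrier Slc25a4 at 2838 ± 148 TPM, the actin-binding Tmsb4x at 3397 ± 1027 TPM, the growth-related Tpt1 at 2455 ± 648 TPM and the chaperone Hsp90ab1 at 2564 ± 393 TPM. The other 6 encode ribosomal proteins, Rplp1 leading with 3759 ± 893 TPM. By function, 81 cytosolic ribosomal protein genes held 9.12 ± 1.83% of TPM, 21 genes of the thick and thin filament 7.18 ± 0.79%, and 82 nuclear-encoded genes of oxidative phosphorylation 5.23 ± 0.51%. The ribosomal share was 12.4% in flox control replicate 1, the library with raised short genes, and 8.01 to 8.44% in the others. Their median gene length was 703 bases. The part of the length trend in the ribosomal share was not tested.

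Ranking by reads instead of by transcripts per length gave a different order. Rn45s took 23550 CPM, the count scaled to the same total without the length, and the beta-myosin heavy chain gene Myh7 ranked 3rd with 8773 CPM and 17th by TPM. Ttn, which encodes the giant elastic protein titin and has 104320 bases of exons, ranked 9th by reads with 3790 CPM and 2102nd by TPM, at 88.0 ± 10.1 TPM. These 2 orders come from the same counts.

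Sarcomere genes were among the most abundant functional groups. Of 21 listed thick and thin filament genes all 21 were measured, 13 had a mean of 1000 TPM or more, and their median was 1453 TPM against 23.9 TPM over all genes. At the low end were Myom2, an M-band protein of fast muscle, at 0.975 ± 0.468 TPM, Mybphl at 62.0 ± 14.0 TPM and the slow myosin Myh7b at 64.5 ± 3.1 TPM.

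Among myosin heavy chains, which hold the motor, Myh7 was at 3965, 5044 and 3028 TPM in the Cre controls and at 2128 and 3530 TPM in the flox controls. Its paralog Myh6, the alpha heavy chain that replaces it in adult mouse ventricles, was at 1166, 1335 and 1006 TPM in the Cre controls and at 650 and 1436 TPM in the flox controls. Both were lowest in flox control replicate 1, and Myh7 was above Myh6 in every library, 3.15-fold on average (log2 ratio 1.66 ± 0.23, range 2.46-fold to 3.78-fold). Long near-identical stretches of these neighbouring genes on chromosome 14 can share reads, and how the authors counted those is not given in the sources used here.

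Among regulatory light chains the ventricular gene led, with a large atrial remainder. Ventricular Myl2 exceeded atrial Myl7 2.45-fold (log2 1.30 ± 0.24), and Myl7 was higher in Cre controls at 7922, 7600 and 7311 TPM than in flox controls at 5814 and 5692 TPM, groups that did not overlap, as in 32% of all genes. Among essential light chains the order depended on length. Ventricular Myl3 was at 5000 ± 431 TPM and embryonic Myl4 at 6489 ± 444 TPM, a log2 ratio of -0.38 ± 0.11 that was negative in all 5 libraries. With the longest annotated transcript as the length the ratio became 1.19, and with the median length of protein-coding transcripts 0.20. The fast skeletal light chain Myl1, also an embryonic atrial transcript, was at 260 ± 76 TPM.

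Cardiac forms led among actins and troponin T. Actc1 exceeded skeletal Acta1 25.7-fold (log2 4.68 ± 0.29), and Acta1 was at 708, 867 and 540 TPM in the Cre controls and 351 and 409 TPM in the flox controls. Smooth muscle Acta2 was at 1377, 1448 and 1122 TPM in the Cre controls and 527 and 821 TPM in the flox controls, giving a log2 ratio to Actc1 of -3.81 ± 0.34. For both minor actins the 2 control genotypes did not overlap, as in 32% of all genes, and actin paralogs are similar enough in sequence to share reads. Tnnt2 exceeded slow skeletal Tnnt1 28.2-fold, a ratio that varied between 15.2-fold and 40.9-fold. Tnnt1 was at 147, 161 and 135 TPM in the Cre controls and at 311 and 290 TPM in the flox controls.

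Troponin I was in its fetal state. The slow skeletal isoform Tnni1, which is fetal in the heart, was at 3367, 3443 and 2918 TPM in the Cre controls and 2325 and 2467 TPM in the flox controls. Cardiac Tnni3, the adult form, was at 1471, 1526 and 1417 TPM in the Cre controls and 1495 and 1358 TPM in the flox controls, so the fetal gene led 1.98-fold (log2 0.98 ± 0.23) and carried nearly all of the spread. Tnnc1, troponin C of slow and cardiac muscle, was at 3269 ± 286 TPM. Tropomyosin Tpm1 exceeded Tpm2 13.9-fold with a small spread (log2 3.80 ± 0.08), and cardiac myosin-binding protein Mybpc3 (1246 ± 283 TPM) exceeded slow skeletal Mybpc1 (8.70 ± 3.49 TPM) 152-fold.

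Every one of 12 listed Z-disc and intermediate filament genes had a mean of 100 TPM or more, with a median of 408 TPM. Csrp3, a stretch-responsive muscle LIM protein, led with 1346 ± 173 TPM, followed by the cardiac ankyrin repeat protein Ankrd1 (1098 ± 191 TPM), alpha-actinin Actn2 (919 ± 217 TPM) and desmin (Des, 681 ± 141 TPM). Actn2 exceeded the non-muscle Actn1 4.58-fold.

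Promoters are shown for highly expressed muscle genes that hold a CArG box, the element bound by serum response factor. Those of the minor actin Acta1, the paralog of Actc1, are shown beside them. So are those of Nppa and Hba-x, abundant genes with the TATAAA motif and no exact match to the CArG box. Each runs from 250 bases before to 50 after the gene start of RefSeq (GRCm38.p6), 5′ to 3′, with the motifs in capitals.

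Actc1 promoter (chr2:114052826-114053125, minus strand): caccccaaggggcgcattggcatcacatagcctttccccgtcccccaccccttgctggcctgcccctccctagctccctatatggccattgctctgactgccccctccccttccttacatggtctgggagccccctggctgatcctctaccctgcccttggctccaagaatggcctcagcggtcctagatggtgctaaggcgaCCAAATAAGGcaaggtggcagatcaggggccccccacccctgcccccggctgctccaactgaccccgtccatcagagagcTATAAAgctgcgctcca

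Acta1 promoter (chr8:123894726-123895025, minus strand): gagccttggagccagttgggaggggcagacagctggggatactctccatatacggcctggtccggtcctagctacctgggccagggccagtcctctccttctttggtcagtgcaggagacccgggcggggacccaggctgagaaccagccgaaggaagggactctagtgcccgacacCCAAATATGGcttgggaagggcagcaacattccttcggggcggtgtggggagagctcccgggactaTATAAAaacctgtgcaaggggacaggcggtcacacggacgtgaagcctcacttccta

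Myl3 promoter (chr9:110763428-110763727, plus strand): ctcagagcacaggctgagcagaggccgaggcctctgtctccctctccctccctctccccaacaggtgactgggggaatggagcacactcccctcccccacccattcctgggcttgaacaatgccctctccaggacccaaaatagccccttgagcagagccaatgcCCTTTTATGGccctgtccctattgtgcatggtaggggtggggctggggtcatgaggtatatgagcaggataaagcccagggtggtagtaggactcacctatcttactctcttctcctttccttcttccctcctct

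Myl7 promoter (chr11:5898733-5899032, minus strand): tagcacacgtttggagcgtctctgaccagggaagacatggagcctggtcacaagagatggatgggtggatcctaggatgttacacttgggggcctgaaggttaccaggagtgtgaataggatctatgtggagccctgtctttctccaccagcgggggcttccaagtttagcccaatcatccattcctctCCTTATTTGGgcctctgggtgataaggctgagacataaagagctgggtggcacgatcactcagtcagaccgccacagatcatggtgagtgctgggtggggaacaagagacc

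Nppa promoter (chr4:148000472-148000771, plus strand): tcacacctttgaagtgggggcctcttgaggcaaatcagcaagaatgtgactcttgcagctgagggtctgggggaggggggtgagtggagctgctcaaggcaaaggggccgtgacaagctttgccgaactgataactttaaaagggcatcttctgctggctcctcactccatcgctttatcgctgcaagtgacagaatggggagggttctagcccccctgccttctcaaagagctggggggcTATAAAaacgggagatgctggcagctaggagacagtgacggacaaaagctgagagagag

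Hba-x promoter (chr11:32276350-32276649, plus strand): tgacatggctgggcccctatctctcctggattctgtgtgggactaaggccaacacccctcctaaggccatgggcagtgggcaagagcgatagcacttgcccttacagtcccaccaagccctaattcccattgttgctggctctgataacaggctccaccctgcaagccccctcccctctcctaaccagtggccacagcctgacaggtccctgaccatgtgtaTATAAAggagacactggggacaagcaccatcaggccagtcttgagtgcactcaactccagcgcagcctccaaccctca

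Both strands were searched for exact matches to TATAAA and to the CArG sequence CCWWWWWWGG, where W is A or T. Near matches were not counted, so a promoter without an exact match may still hold a variant of the element. Distances are from the first base of a motif to the gene start in the deposited table, which can differ from that of RefSeq. The CArG box begins 111 bases upstream in Actc1, 73 in Acta1, 88 in Myl3 and 61 in Myl7. The TATAAA motif begins 31 bases upstream in Actc1, 33 in Nppa, 28 in Hba-x and 7 in Acta1. The letters of a CArG box can include TATAAA, and in Actc1 and Acta1 the matches lie apart. RefSeq promoters were found for 10376 of the 13701 genes. Among 19 sarcomere genes with one, 5 (26.3%) held a CArG box and 4 (21.1%) TATAAA, against 1.6% and 8.7% of all promoters of this length. Among 60 ribosomal protein genes the shares were 1.7% and 11.7%, and among 74 of the 100 highest genes 9.5% and 13.5%. Levels of these groups were not matched, with a median of 1003 TPM for all 81 ribosomal protein genes and 1453 TPM for all 21 sarcomere genes. A match of letters is a description of the window and does not show that a factor binds there. Actc1 and Acta1 both hold the 2 motifs and differed 25.7-fold in level.

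Hormone and layer markers of the ventricular wall were present together. Nppa, which marks trabecular muscle, was at 3733, 4265 and 3740 TPM in the Cre controls and 4377 and 3957 TPM in the flox controls, one of the steadier abundant genes. Its neighbour Nppb, brain natriuretic peptide, was at 295, 586 and 398 TPM in the Cre controls and 571 and 508 TPM in the flox controls, and Nppa exceeded it 8.77-fold (log2 3.13 ± 0.33). The other trabecular genes were lower than Nppa. The trabecular growth factor Bmp10 was at 148 ± 29 TPM, the connexin Gja5 at 139 ± 30 TPM, Irx3 at 27.1 ± 3.3 TPM and the transcriptional cofactor Cited1 at 539 ± 85 TPM. Of the 3 compact layer genes, Tbx20 was at 260 ± 23 TPM, Hey2, a Notch-responsive repressor, at 111 ± 9 TPM and the growth regulator Mycn at 56.4 ± 11.1 TPM.

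Most calcium handling families were dominated by the cardiac member. The sarcoplasmic pump Atp2a2 was at 816 ± 166 TPM and exceeded Atp2a3 232-fold (log2 7.86 ± 0.40), the widest ratio of all pairs. Its ventricular inhibitor Pln was at 815, 830 and 792 TPM in the Cre controls and 1163 and 966 TPM in the flox controls, and exceeded the atrial inhibitor Sln (7.23 ± 2.50 TPM) 131-fold. The release channel Ryr2 was at 80.6 ± 17.6 TPM and exceeded Ryr3 35.1-fold, with Ryr3 so low (1.06 to 5.04 TPM) that the ratio ranged from 13.4-fold to 64.0-fold. Calsequestrin, the calcium store protein, was the exception to the cardiac pattern. Cardiac Casq2 was at 52.7 ± 6.1 TPM and skeletal Casq1 at 180 ± 17 TPM, a log2 ratio of -1.78 ± 0.22 with Casq1 higher in every library. Calr, the calcium store protein of the endoplasmic reticulum, was higher than either at 1022 ± 136 TPM.

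The sodium-calcium exchanger Slc8a1 was at 270 ± 21 TPM, the L-type channel gene Cacna1c at 45.4 ± 5.3 TPM, and Cacna1c exceeded Cacna1d 4.42-fold. The T-type channel gene Cacna1h (78.9 ± 9.6 TPM) exceeded Cacna1g (2.71 ± 0.62 TPM) 29.5-fold. Across the 16 listed ion channel genes the median was 11 TPM, below the 23.9 TPM of all genes, and none reached a mean of 100 TPM. Among the highest were the repolarising channel Kcnh2 (87.9 ± 15.9 TPM), Kcnj5 (80.4 ± 7.3 TPM) and Cacna1h. Of the pacemaker channels, Hcn4 was at 31.2 ± 7.4 TPM, and Hcn2 was below 1 TPM in every library. Among gap junction genes Gja1 was at 477, 457 and 426 TPM in the Cre controls and 211 and 329 TPM in the flox controls, and exceeded Gja5 2.67-fold and Gjc1 4.44-fold.

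Of 23 listed cardiac transcription factors 22 had a mean of 10 TPM or more and 10 had 100 TPM or more, with a median of 97.9 TPM. The homeodomain cofactor Hopx (264 ± 65 TPM), the T-box factor Tbx20 and the zinc finger factor Gata4 (250 ± 43 TPM) were the highest and lay within each other's spread. Nkx2-5, the homeodomain factor of cardiac progenitors and muscle, was at 159, 184 and 148 TPM in the Cre controls and 207 and 274 TPM in the flox controls. Every Cre carrier was thus below both flox controls, as in 19.3% of all genes. Isl1, which marks second heart field progenitors, was lowest at 6.47, 5.12 and 12.4 TPM in the Cre controls and 2.0 and 3.07 TPM in the flox controls.

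The HAND factors direct growth of the ventricular chambers. Hand2 was at 183, 191 and 196 TPM in the Cre controls and 153 and 197 TPM in the flox controls. Hand1, the gene floxed in this series, was at 123, 85.8 and 110 TPM in the Cre controls and 43.1 and 65.0 TPM in the flox controls. Hand2 was higher than Hand1 in all 5 libraries, 2.29-fold on average, and the ratio ranged from 1.48-fold to 3.56-fold as Hand1 varied. In the GATA family Gata4 exceeded Gata6 1.81-fold and Gata5 4.42-fold with small spreads (log2 0.86 ± 0.10 and 2.14 ± 0.09). Tbx20 exceeded Tbx5 4.86-fold, and Irx4, a ventricle-restricted factor, exceeded Irx3 3.60-fold. In the MEF2 family Mef2c, the form first used in the heart, was at 66.6 ± 3.1 TPM and Mef2a at 109 ± 13 TPM (log2 ratio -0.70 ± 0.20).

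**Figure D3:**
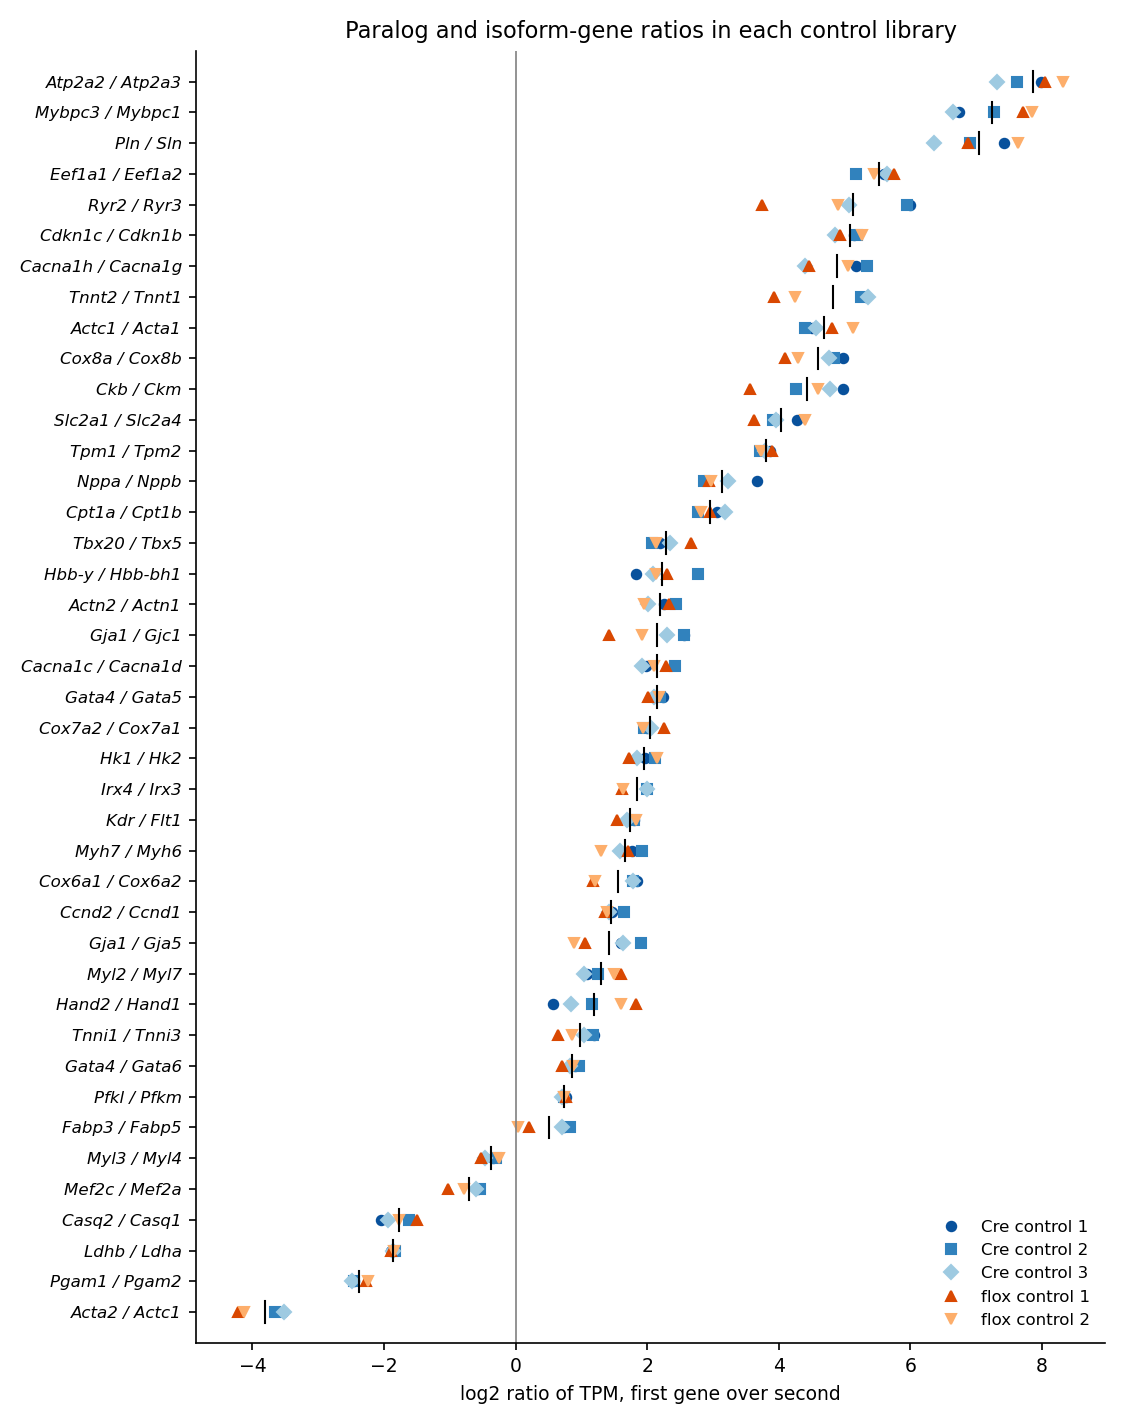
Log2 ratio of TPM within each control library (x axis) for 41 pairs of related genes (y axis, first gene over second), with a symbol per library and a bar at the mean. In 35 pairs all 5 libraries lie right of 0 and in 6 pairs all 5 lie left of it.

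Of 44 pairs of related genes 41 were measured, and Tnnc2, Eno1 and Hba-a1 were not analysed here. The first-named gene was higher in all 5 libraries in 35 pairs and lower in all 5 in the other 6. The 6 were Acta2/Actc1, Myl3/Myl4, Casq2/Casq1, Mef2c/Mef2a, Pgam1/Pgam2 and Ldhb/Ldha. The difference exceeded 4-fold in 24 pairs and 16-fold in 12, in either direction. An exact two-sided sign-flip permutation test over 5 libraries cannot go below p = 0.0625, which every pair reached, and adjusted over the 41 pairs it stayed at 0.0625. No pair can therefore pass 0.05 in this design. The SD of the ratios lay between 0.03 and 0.92, with a median SD of 0.23 on the log2 scale.

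Glycolysis genes were abundant, and families differed in whether the muscle form led. The 18 measured glycolysis genes held 1.1 ± 0.17% of TPM with a median of 426 TPM. Aldolase Aldoa was at 1852 ± 338 TPM, lactate dehydrogenase Ldha at 1645 ± 170 TPM, Gapdh at 1450 ± 288 TPM and pyruvate kinase Pkm at 1180 ± 233 TPM. Ldhb, the heart-type subunit of the adult, was at 477, 491 and 419 TPM in the Cre controls and 378 and 485 TPM in the flox controls. Its ratio to Ldha was nearly constant at log2 -1.87 ± 0.03, so Ldha was 3.66-fold higher. Glucose transporter Slc2a1 (466 ± 110 TPM) exceeded the insulin-responsive Slc2a4 (27.9 ± 3.3 TPM) 16.4-fold, and hexokinase Hk1 exceeded Hk2 3.89-fold. For phosphoglycerate mutase the muscle form led, with Pgam1 at 112 ± 18 TPM and the muscle form Pgam2 at 587 ± 124 TPM, 5.21-fold higher. For the liver and muscle forms of phosphofructokinase, Pfkl exceeded Pfkm 1.67-fold (log2 0.74 ± 0.03).

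The 18 fatty acid genes had a median of 81.6 TPM. Mitochondrial Acadl (302 ± 47 TPM), the lipid carrier Fabp3 (288 ± 43 TPM), Hadha (231 ± 44 TPM) and Hadh (224 ± 27 TPM) led. The gate of fatty acid import was low and in its liver form, with Cpt1a at 28.4 ± 4.4 TPM and the muscle form Cpt1b at 3.70 ± 0.85 TPM, a 7.77-fold ratio. The nuclear receptor Ppara, which drives this pathway in the adult, was at 1.64 ± 0.19 TPM. Fabp3 exceeded Fabp5 1.42-fold, and by reads without a length the mean log2 ratio was -0.07. Creatine kinase was in its brain form, with Ckb at 328, 325 and 253 TPM in the Cre controls and 187 and 207 TPM in the flox controls, and Ckm at 12.2 ± 3.9 TPM, a 21.6-fold ratio. Of the cytochrome oxidase subunits with a muscle form, the general forms led, by 2.95-fold for Cox6a1 over Cox6a2, 4.10-fold for Cox7a2 over Cox7a1 and 24.1-fold for Cox8a over Cox8b.

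Imprinted growth genes were abundant. The 15 measured imprinted genes held 2.30 ± 0.06% of TPM, the smallest relative spread of the classes described, and had a median of 213 TPM. H19 was at 9136, 8978 and 9705 TPM in the Cre controls and 11899 and 9736 TPM in the flox controls. The growth factor Igf2, its neighbour on chromosome 7, was at 4099, 4190 and 4099 TPM in the Cre controls and 3630 and 4306 TPM in the flox controls. H19, Igf2 and the cell cycle inhibitor Cdkn1c (1874 ± 314 TPM) lie on the same chromosome and together held 1.58 ± 0.08% of TPM. Chromosome 7 as a whole held 10.8 ± 0.4% of TPM with 7.53% of the genes. It also carries abundant genes that are not in the imprinted list, among them Hbb-y (12368 TPM) and Hbb-bh1 (2721 TPM). Mest was at 3877 ± 365 TPM, Grb10, a brake on growth factor receptors, at 1147 ± 194 TPM and Igf2r, the receptor that clears Igf2, at 1022 ± 290 TPM. Cdkn1c exceeded its relative Cdkn1b 33.7-fold (log2 5.08 ± 0.18).

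Genes of dividing cells were expressed throughout. All 14 S phase and all 12 G2 and M phase genes had a mean of 10 TPM or more, with medians of 124 and 90.3 TPM. The highest were the DNA polymerase clamp Pcna (248 ± 40 TPM) and the ribonucleotide reductase subunits Rrm2 (201 ± 33 TPM) and Rrm1 (195 ± 26 TPM) for S phase, and Ube2c (387 ± 30 TPM) and Top2a (249 ± 18 TPM) for G2 and M. Among D-type cyclins Ccnd2 was at 364 ± 58 TPM and exceeded Ccnd1 2.74-fold. Of 14 matrix genes 12 reached a mean of 100 TPM, led by Sparc (906 ± 120 TPM), fibronectin (Fn1, 675 ± 160 TPM) and the basement membrane collagen Col4a1 (415 ± 114 TPM). Versican (Vcan), a main component of the cardiac jelly between endocardium and muscle, was at 255 ± 25 TPM.

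Among the genes measured, muscle markers had the highest summed level of the cell types examined, far above endothelium and epicardium and less far above red cells. The 12 cardiomyocyte genes summed to 50996 ± 6009 TPM, the 12 endocardial and endothelial genes to 1122 ± 107 TPM and the 11 epicardial genes to 449.7 ± 30.5 TPM. The muscle sum was 45.7 ± 5.9 times the endothelial and 113 ± 12 times the epicardial one. It was 2.8 ± 0.79 times the sum of the 9 measured erythroid genes, and 1.42 times that sum in Cre control replicate 3, where the erythroid sum was highest. The erythroid sum leaves out the other 7 listed genes, adult globins and Ahsp, so the ratio to the whole list is not known. Markers differ in level per cell, and in a whole tissue fewer cells of a type and less RNA per cell cannot be told apart, so these ratios are not cell shares. The markers Myh7, Myl2, Nppa, Pecam1, Wt1 and Hbb-y were all measured in every library. This does not identify the tissue, since 13692 to 13696 of the 13701 genes had a count in each library.

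Of the endothelial genes Plvap led with 196 ± 28 TPM, followed by the adhesion gene Cdh5 (148 ± 27 TPM) and Emcn (126 ± 16 TPM), and Pecam1 was at 116, 119 and 118 TPM in the Cre controls and 97.9 and 128 TPM in the flox controls. The vascular growth factor receptor Kdr exceeded Flt1 3.32-fold, and the tight junction gene Cldn5 was the single member under 10 TPM, at 2.99 ± 0.83 TPM. Of the epicardial genes Upk3b was highest at 114 ± 18 TPM, and the epicardial factor Wt1 was at 34.6, 30.6 and 29.5 TPM in the Cre controls and 29.7 and 29.4 TPM in the flox controls. Msln, a marker of mature mesothelium, was at 1.90 ± 0.56 TPM. The 10 cushion mesenchyme genes summed to 1200 ± 154 TPM, led by Col3a1 (313 ± 66 TPM) and Postn (286 ± 36 TPM).

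Markers of neighbouring tissues had low sums in most lists and were mixed for the atrium. The atrial list summed to 13644 ± 1255 TPM, nearly all of it Myl7 and Myl4, which embryonic ventricles also express, while Sln and the atrial factor Nr2f2 (14.1 ± 1.3 TPM) were low. The 6 conduction and sinus node genes measured summed to 56.3 ± 13.2 TPM, of which Hcn4 supplied the largest part, and the conduction system factor Tbx3 was at 14.0 ± 2.3 TPM. The 5 measured outflow tract and second heart field genes summed to 130 ± 23 TPM, led by the growth factor Bmp4 at 48.4 ± 15.9 TPM. Their median of 35.7 TPM was above the 23.9 TPM of all genes. The 6 neural crest and neuron genes measured summed to 55.7 ± 16.4 TPM, led by Erbb3 at 21.1 ± 5.6 TPM and neuronal tubulin Tubb3 at 19.1 ± 7.9 TPM. Of 9 hepatocyte genes transferrin (Trf, 22.5 ± 2.8 TPM) and Apoa2 (3.43 ± 1.65 TPM) had values, and the others, like the 6 skeletal muscle progenitor genes, were not analysed here.

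**Figure D4:**
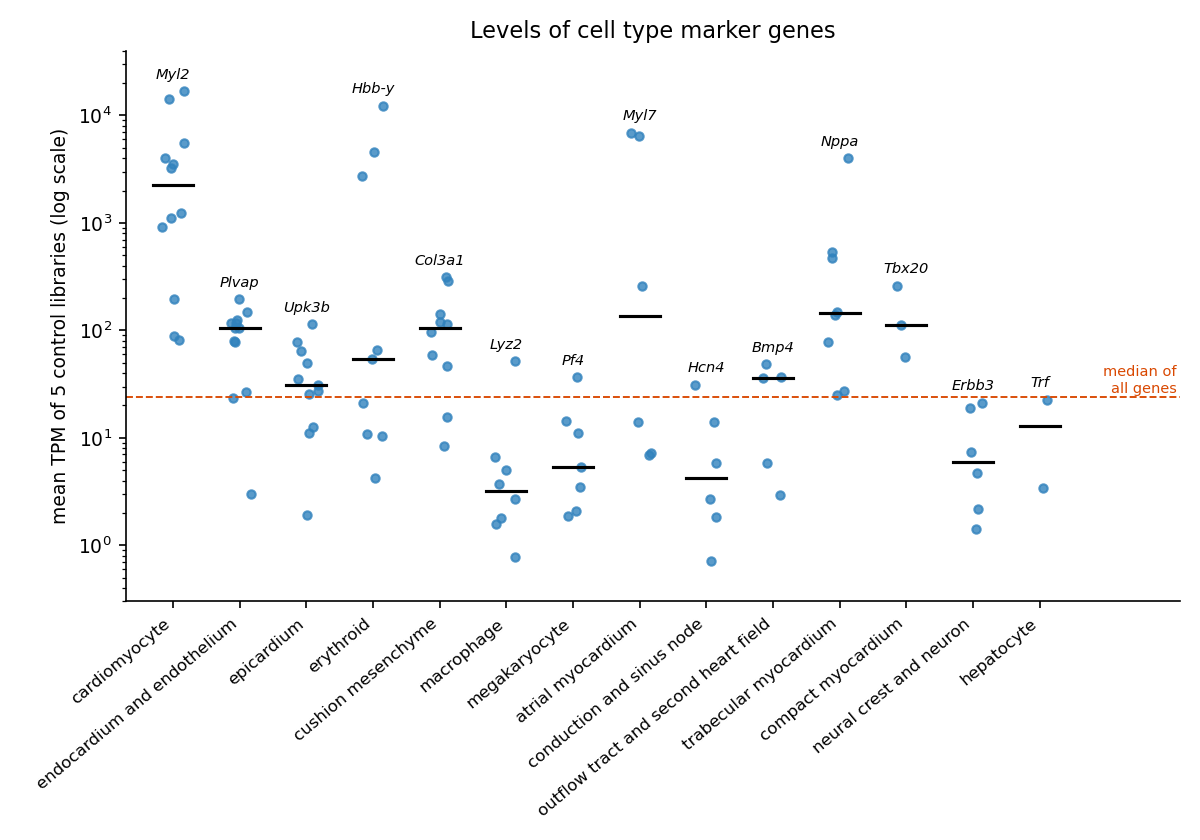
Mean TPM over the 5 control libraries (y axis, log scale) of each measured marker gene (points) in lists of cell type markers (x axis), with a bar at the list's median, the highest gene named and the median of all genes (23.9 TPM) as a dashed line. The cardiomyocyte list has a median of 2257 TPM and the macrophage list 3.19 TPM.

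Lists of blood lineages spanned the widest ranges of those measured, at 3.57-fold between the lowest and the highest library for macrophage genes, 2.84-fold for megakaryocyte genes and 2.29-fold for erythroid genes. The 9 measured erythroid genes summed to 17312, 17464 and 32806 TPM in the Cre controls and 14304 and 17189 TPM in the flox controls, so Cre control replicate 3 was far above the rest. Hbb-y was at 9930, 11242 and 20338 TPM in the Cre controls and 9758 and 10573 TPM in the flox controls. Hbb-bh1, the other embryonic beta-like globin, was at 2794, 1653 and 4767 TPM in the Cre controls and 1975 and 2419 TPM in the flox controls. Hbb-y exceeded it 4.67-fold (3.55-fold to 6.80-fold), and the embryonic alpha-like globin Hba-x was at 4441, 4413 and 7423 TPM in the Cre controls and 2474 and 4048 TPM in the flox controls. All 6 measured red cell genes outside the globins were also highest in Cre control replicate 3. The membrane transporter Slc4a1 was at 55.0, 64.8 and 115 TPM in the Cre controls and 33.5 and 57.0 TPM in the flox controls. The heme synthesis enzyme Alas2 was at 50.7, 52.7 and 86.6 TPM in the Cre controls and 29.9 and 50.1 TPM in the flox controls. The adult globins and Ahsp were not analysed here.

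Platelet lineage genes had a different pattern from the red cell genes. The 7 megakaryocyte genes summed to 63.3, 124 and 88.1 TPM in the Cre controls and 54.2 and 43.7 TPM in the flox controls, with the platelet chemokine Pf4 the highest at 36.5 ± 14.1 TPM. The 8 measured macrophage genes summed to 38.1, 38.8 and 41.7 TPM in the Cre controls and 136 and 114 TPM in the flox controls. That difference lay in Lyz2, the lysozyme of myeloid cells, at 18.6, 18.9 and 13.8 TPM in the Cre controls and 116 and 91.1 TPM in the flox controls. The defining macrophage genes were low in all libraries, as Csf1r was at 3.19 to 4.07 TPM, Fcer1g at 3.03 to 7.95 TPM and Cd68 at 5.85 to 7.09 TPM. In these 3 no flox control exceeded the highest Cre control. The mannose receptor gene Mrc1, the only other member with both flox controls above all Cre controls, was at 1.16, 1.02 and 1.57 TPM in the Cre controls and 2.41 and 2.77 TPM in the flox controls. The flox controls were thus above in 2 of the 8 genes, against 19.3% of all genes, and the Cre controls were above in 1. The part of macrophages in the Lyz2 difference was not tested.

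Levels were reproducible for most genes. At a mean of 10 TPM or more 9642 genes had a median coefficient of variation (CV) of 11.1%, and 40 of them had a CV over 50%. Without flox control replicate 1 the median was 6.79% and the count 26. Counting error alone would give a median CV of 3.11% at 10 to 100 TPM, where 11% was measured, and of 0.76% at 1000 TPM or more, where 16.9% was measured. Of the 40 variable genes 22 were highest in flox control replicate 1, 9 in flox control replicate 2 and 6 in Cre control replicate 3, and 6 were Y-linked or Xist. At 100 TPM or more a single gene passed 50%. It was Cwc22, a splicing factor gene, at 240, 238 and 261 TPM in the Cre controls and 22.8 and 136 TPM in the flox controls.

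The gene with the highest CV was Rgs5, a regulator of G protein signalling that marks pericytes, at 10.0, 2.82 and 67.4 TPM in the Cre controls and 3.0 and 4.56 TPM in the flox controls. Zbed6 was at 2.73, 5.57 and 4.71 TPM in the Cre controls and 47.4 and 7.85 TPM in the flox controls. It lies within another gene, so its reads depend on how overlaps were counted. Neuronal enolase Eno2 was at 5.16, 5.6 and 5.41 TPM in the Cre controls and 24.1 and 42.3 TPM in the flox controls, and the pseudogene Rpl14-ps1 at 17.5, 17.0 and 14.4 TPM in the Cre controls and 97.2 and 79.7 TPM in the flox controls. In both, each flox control was above every Cre control, as in 19.3% of all genes. Both genes were named for their high CV, so a wide gap between libraries was selected for. At the other end, among genes of 100 TPM or more, the mitochondrial import subunit Tomm6 varied least, with 180, 182 and 179 TPM in the Cre controls and 179 and 177 TPM in the flox controls (CV 0.96%), followed by Polr2m (CV 0.98%) and Nudt3 (CV 1.01%). Gapdh, often used for scaling, had a CV of 19.9%.

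**Figure D5:**
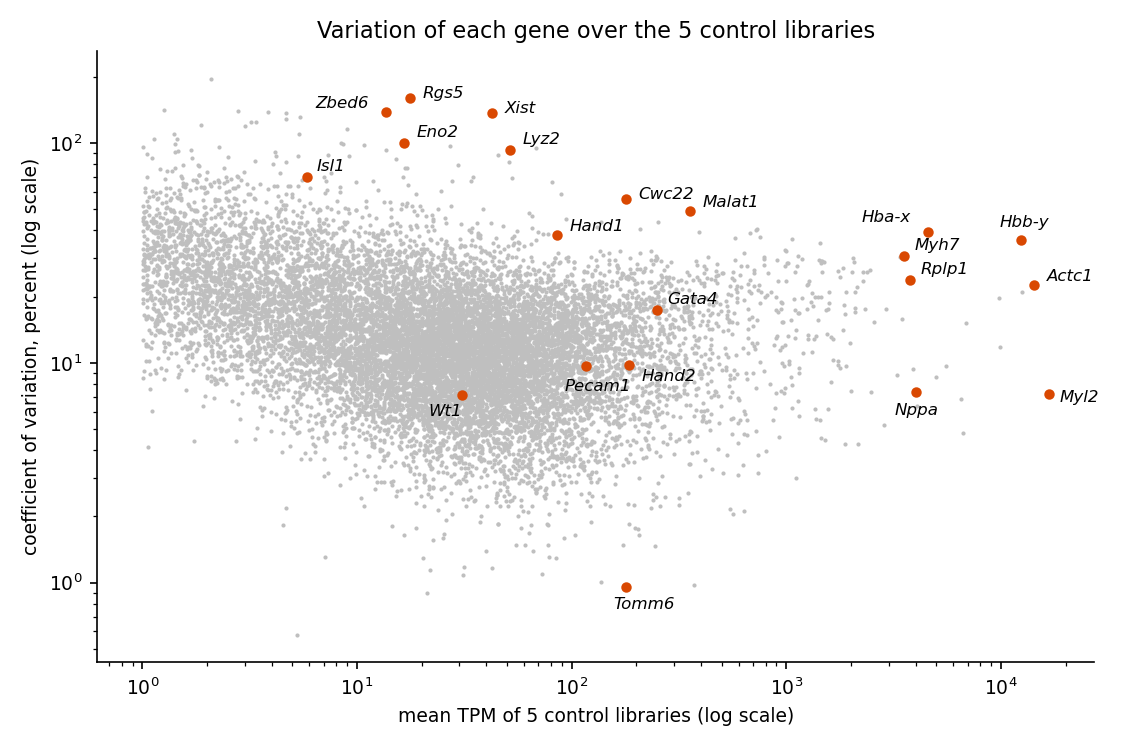
Coefficient of variation over the 5 control libraries (y axis, percent, log scale) against mean TPM (x axis, log scale) for each gene at 1 TPM or more, with selected genes named. Rgs5, Zbed6 and Xist lie above 130%, and Tomm6 is at 0.96%.

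The 2 control genotypes did not overlap in 32% of all genes (4389 of 13701), with the Cre controls above in 12.7% and the flox controls above in 19.3%. Among the lists the counts were 8 of 23 cardiac transcription factors (34.8%), 7 of 21 thick and thin filament genes (33.3%), 7 of 16 calcium handling genes (43.8%), 8 of 16 ion channel genes (50%), 4 of 6 creatine and high-energy phosphate genes (66.7%) and 4 of 7 megakaryocyte genes (57.1%). They were 4 of 15 imprinted genes (26.7%), 4 of 18 glycolysis genes (22.2%) and 1 of 12 G2 and M phase genes (8.3%). The first 2 shares were near that of all genes. In the creatine and megakaryocyte lists all 4 were higher in the Cre controls. All 7 sarcomere genes were higher in the Cre controls. Since 1 of only 2 flox libraries stood apart in its length trend, genotype and library cannot be told apart in these counts.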

How the data were processed

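Per the submitters' processing notes, STAR 2.4.2a, featureCounts, Subread 1.5.0 and edgeR were used with mm10. Settings, annotation and strandedness are not given in those sources. The values deposited by the authors are unnormalised counts for each gene, beside its coordinates and summed exon length, which equalled the exon union for 100% of its 13701 genes. The lowest count summed over the controls was 8, and no mitochondrial gene was among them. Columns of 2 other samples, the knockouts, were not used. Trailing notes were cut off 46 symbols, and 20 symbols stored as dates were restored by coordinates in GENCODE vM21.

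TPM was computed per library from counts and length (Python 3.11.15, pandas 2.3.3). Interpretation is limited by that length, which assumes every exon is used. Pairs were tested with an exact two-sided sign-flip permutation test (32 assignments) on log2 TPM ratios, adjusted by Benjamini-Hochberg over the pairs. The calculations were tested on simulated data. Alternatives were other gene lengths, CPM, edgeR 4.0.16 and DESeq2 1.42.0 scaling, a minimum of 10 counts, omission of erythroid or short genes, each control genotype alone and each library left out. Omission of genes under 200 bases with Rn45s, and the median protein-coding transcript length, were chosen after seeing the data.

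The members and lists were chosen with earlier results of these data known. Named genes are the markers Myh7, Myl2, Nppa, Pecam1, Wt1 and Hbb-y, the 30 highest by mean TPM, all pair members, the 4 highest of each list, the 10 with the highest CV at 10 TPM or more, Hand1, Hand2 and Nkx2-5. Genes named beyond these (Malat1, Ttn, Alas2, Mrc1, Cwc22, Grb10, Igf2r, Ppara, the lowest members of lists, and the genes with the lowest CV) were chosen after their values were seen. A few genes that the rule takes are not reported here.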

Additional observations from a re-analysis of the deposited data

Results flagged for a closer look

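Of 117 values examined for a sample far from the other 4 control libraries, 14 had one (a gap over 0.71 of the range of the 5), where chance gives about 1 in 20 groups. That rate does not hold for this set, which includes genes chosen for a high CV (such as Rgs5 and Zbed6) and short ribosomal protein genes that move together in flox control replicate 1. Flox control replicate 1 was the distant library in 9 of them, Cre control replicate 3 in 3, Cre control replicate 1 in 1 and flox control replicate 2 in 1.

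Blood genes stood out in Cre control replicate 3. The erythroid list summed to 32806 TPM there, against 14304 to 17464 TPM in the others, and Hbb-y was at 20338 TPM against 9758 to 11242 TPM. In the same library Rgs5 was at 67.4 TPM, against 2.82 to 10.0 TPM in the others.

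Mostly short and highly expressed genes stood out in flox control replicate 1. Rplp1 was at 5357 TPM (others at most 3373), Tmsb4x at 5189 TPM (others at most 3285), Tpt1 at 3601 TPM (others at most 2285) and Rpl4 at 2789 TPM (others at most 2442). Rps12 was at 3446 TPM, Rpl32 at 3338 TPM and Rps15 at 3059 TPM, each above all other libraries. The longer H19 (2288 bases) was at 11899 TPM against 8978 to 9736 TPM. Zbed6, neither short (5007 bases) nor highly expressed, was at 47.4 TPM against 2.73 to 7.85 TPM.

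The imprinted list summed to 23996 TPM in flox control replicate 2, against 22529 to 22939 TPM in the others. Wt1 was at 34.6 TPM in Cre control replicate 1, against 29.4 to 30.6 TPM.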

How the results depend on the processing

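Levels depended most on gene length. Counted by reads (CPM), the 10 highest genes held 7.86% and the 100 highest 19.7%, 47 genes reached 1000 in every library, and the cardiomyocyte, endothelial and erythroid lists summed to 36937, 1654 and 5153. Without genes under 200 bases and Rn45s the 10 and 100 highest held 9.16% and 26.2%, with 200 bases taken off each length the 100 highest held 29.97%, and without erythroid genes 26.5%. Leaving out libraries or taking medians could not reverse a pair, since every pair had the same direction in all 5 libraries. Only a change or omission of the length could. Pair directions were kept under 487 of 490 alternatives. The exceptions were Myl3 over Myl4, with a log2 ratio of 1.19 for the longest transcript and 0.20 for the median protein-coding length, and Fabp3 over Fabp5, at -0.073 by reads. Of 286 alternatives for the other 22 lists 249 moved the sum by less than 1 SD, and 3 of the 37 others did not change the length.

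Leaving out each library in turn put the median CV between 6.79% and 12.2% and the number of genes with a CV over 50% between 26 and 53, the lowest without flox control replicate 1. The Cre controls alone gave 5.81% and 13 genes, and genes from 1 TPM upwards gave 221. The cause was not tested. No paired analysis was possible because the replicate numbers follow the order of the samples and pair none of them, and no groups were contrasted. About 0.03 TPM per count at the median length limits genes under 1 TPM.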
